A study of Mus musculus with 16 samples.

Results

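The genes described are 31 mouse genes that the sterol regulatory element-binding proteins (SREBPs) regulate: 18 enzymes of sterol synthesis, 5 genes of the SREBP control circuit, the sterol carrier Stard4, 4 genes of fatty acid synthesis and 3 fatty acid desaturases and elongases. The rule that names them lists genes of the pathway and uses no measured value, though earlier results of these libraries were known when the list was made. All 31 were among the 35613 genes of the files, and all 31 passed the filter on low counts that left 15533 tested genes. RNA had been sequenced from primary muscle cell cultures of mice that carry Pax7-nGFP, a nuclear green fluorescent protein reporter of Pax7, the transcription factor of muscle stem cells.

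The 16 libraries formed 5 groups of 3 and 1 single library. Bulk myoblasts were unsorted cells at passage 3. GFP+ myoblasts were sorted for the reporter at passage 5 to 6. Both grew in 20% fetal bovine serum, 10% horse serum and 10 ng/ml basic FGF. Differentiated myoblasts spent 3 days in DMEM with 2% horse serum. MPC (the labels do not spell the name out) came from myoblasts of 2 to 3 passages that were moved for 5 to 6 passages into a medium with 10% fetal bovine serum, 10% KnockOut Serum Replacement, 10 ng/ml basic FGF, 5 µM Forskolin, 5 µM Repsox and 3 µM of a compound written as CHIR9901, and were taken unsorted (bulk MPC) or sorted (GFP+ MPC). These 15 libraries came from lines of 16-week male mice. The single library held GFP+ MPC made from high-passage, GFP- sorted myoblasts (passage 8) of a 39-week female mouse after 2 passages in MPC medium. Every comparison between MPC, differentiated and growing cultures therefore also compares media, serum and passage, and every comparison of sorted with unsorted cells also compares RNA kits, so these cannot be told apart. GFP+ and bulk myoblasts differ in passage as well (5 to 6 against 3), which enters their comparison and the interaction.

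Cells make cholesterol from acetyl-CoA through mevalonate, squalene and lanosterol, and they make fatty acids from the same acetyl-CoA through malonyl-CoA. SREBP-2, encoded by Srebf2, mainly drives the sterol enzymes, and SREBP-1, encoded by Srebf1, mainly drives the fatty acid enzymes. Both are made as membrane proteins of the endoplasmic reticulum, where Scap escorts them to the Golgi for cleavage when sterols are low and Insig1 and Insig2 hold them back when sterols are high. The amount of active SREBP is thus set largely by protein cleavage, which RNA levels do not measure.

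The libraries held between 19300307 and 29127963 estimated counts. Levels are given as counts-per-million (CPM) values, scaled with TMM factors, and fold changes as log2 values with a standard error from the edgeR fit of the 15 replicated libraries. A gene is called higher or lower where its adjusted p from edgeR's quasi-likelihood test was under 0.05. Pax7 stood at 853 to 1007 CPM in GFP+ myoblasts, 604 to 870.5 in GFP+ MPC, 535 to 664 in bulk myoblasts, 54.4 to 138 in bulk MPC and 24.7 to 63.3 in differentiated cultures. Embryonic myosin Myh3, made by differentiating muscle cells, stood at 6442 to 28101 CPM in the unsorted libraries and at 65.6 to 428 CPM in the sorted ones. In bulk RNA, fewer cells of a type and less RNA per cell cannot be told apart. Fat cells also make these enzymes. The 10 adipocyte markers summed to 4.92 to 8.70 CPM in bulk myoblasts, 3.72 to 6.17 in GFP+ myoblasts, 5.23 to 5.30 in differentiated cultures, 7.38 to 10.4 in bulk MPC and 9.05 to 14.7 in GFP+ MPC. Of the 10, Adipoq, Plin1, Cidec, Lep and Cfd were at or below 0.162 CPM in every library, and the 3 that passed the filter were Pparg, Lipe and Plin4. In GFP+ MPC against GFP+ myoblasts, Lipe was higher (3.43 ± 0.33) and Pparg (-2.88 ± 0.60) and Plin4 (-7.48 ± 2.08) were lower, and their part in the members' differences was not tested. Summed fibroblast markers stood apart in bulk myoblast replicate 3 (131 CPM, against 20.4 and 30.8 in the other 2).

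Promoter windows of 4 members are printed here because they span the range of motif content within the list. SREBPs bind the sterol regulatory element, usually next to sites for the general factors NF-Y and Sp1. RefSeq's promoter table on GRCm38.p6 held 34 windows of 300 bases (250 before to 50 after a start site) for 25 of the 31 genes, and Fdps, Fdft1, Sqle, Stard4, Scd1 and Scd2 were not among them. Capitals mark matches, on either strand, to the sterol regulatory element core TCACNCCAC, the NF-Y box CCAAT, the E-box CACGTG or the Sp1 box GGGCGG. Each sequence runs 5′ to 3′ on the gene's own strand. Hmgcs1 (chr13:119690101-119690400, plus strand), which encodes HMG-CoA synthase, was the member with a match to the core. Nsdhl (chrX:72918271-72918570, plus strand), a sterol C4 demethylation enzyme, had 4 NF-Y boxes and 1 Sp1 box, and the Elovl6 window (chr3:129532136-129532435, plus strand) had no match. Srebf1 had 3 windows in the table. The middle one (chr11:60220578-60220877, minus strand), called upstream here, and the most downstream one (chr11:60210422-60210721, minus strand) belong to the start sites known for the SREBP-1a and SREBP-1c forms. The third Srebf1 window, further upstream, held 1 NF-Y box and is not printed.
Hmgcs1: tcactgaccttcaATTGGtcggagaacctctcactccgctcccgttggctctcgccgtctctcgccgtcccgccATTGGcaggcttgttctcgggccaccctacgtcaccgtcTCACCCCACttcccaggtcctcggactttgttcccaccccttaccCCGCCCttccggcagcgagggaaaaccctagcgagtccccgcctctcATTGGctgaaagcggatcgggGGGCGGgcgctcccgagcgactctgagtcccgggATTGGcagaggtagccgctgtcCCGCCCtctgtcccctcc
Nsdhl: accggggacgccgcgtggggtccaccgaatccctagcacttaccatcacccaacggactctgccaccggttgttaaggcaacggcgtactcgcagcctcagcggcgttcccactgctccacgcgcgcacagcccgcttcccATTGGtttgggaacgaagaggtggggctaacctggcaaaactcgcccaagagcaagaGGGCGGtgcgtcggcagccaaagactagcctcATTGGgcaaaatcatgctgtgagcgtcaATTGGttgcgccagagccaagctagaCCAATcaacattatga
Elovl6: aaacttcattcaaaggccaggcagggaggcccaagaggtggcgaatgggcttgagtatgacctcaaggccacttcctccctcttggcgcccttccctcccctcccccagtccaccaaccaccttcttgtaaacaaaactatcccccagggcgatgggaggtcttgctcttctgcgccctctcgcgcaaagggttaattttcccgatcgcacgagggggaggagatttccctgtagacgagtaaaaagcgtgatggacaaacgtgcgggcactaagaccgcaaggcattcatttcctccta
Srebf1 upstream: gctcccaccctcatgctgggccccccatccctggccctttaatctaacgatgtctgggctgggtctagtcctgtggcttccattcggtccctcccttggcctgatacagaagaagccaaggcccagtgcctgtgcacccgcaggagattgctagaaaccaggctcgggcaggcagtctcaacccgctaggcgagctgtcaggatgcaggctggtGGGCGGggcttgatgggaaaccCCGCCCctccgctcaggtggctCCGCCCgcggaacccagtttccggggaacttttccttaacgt
Srebf1 downstream: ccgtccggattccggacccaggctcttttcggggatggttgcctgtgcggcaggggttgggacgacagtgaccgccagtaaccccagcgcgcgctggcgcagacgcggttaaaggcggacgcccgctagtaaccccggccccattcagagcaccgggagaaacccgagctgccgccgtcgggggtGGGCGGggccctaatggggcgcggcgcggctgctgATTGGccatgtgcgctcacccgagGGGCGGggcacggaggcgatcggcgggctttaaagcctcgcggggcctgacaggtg

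The NF-Y box was present in 22 of the 34 member windows (64.7%), against 37.4% of all 32851 windows in the table. The Sp1 box was in 25 of 34 (73.5%, against 35.7%), the E-box in 6 of 34 (17.6%, against 7.15%) and the core of the sterol element in 1 of 34 (2.94%, against 1.24%). Among the 18 windows of sterol enzymes, 14 held an NF-Y box and 15 an Sp1 box. Among the 16 windows of the other members, 8 held an NF-Y box and 10 an Sp1 box. A match describes letters in these windows only, and binding was not measured.

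Differentiated myoblasts had the highest levels of most of these genes, and bulk MPC the lowest of a smaller set. All 3 differentiated libraries lay above the other 12 replicated libraries for 17 of the 31 members (54.8%), against 10.4% of all tested genes. Bulk MPC lay below all others for 10 members (32.3%, against 5.96% of all tested genes): Acat2, Fdft1, Sqle, Cyp51, Srebf1, Scap, Insig1, Acly, Acaca and Fasn. GFP+ MPC lay above all others for Acat2, Srebf2, Stard4 and Elovl6 (12.9%, against 12.5%), which is near the background. All 3 GFP+ myoblast libraries lay above the other 12 for Scap, Acly and Me1 (9.68%, against 5.97%). They lay below the other 12 for Hmgcs1 and Dhcr7 (6.45%, against 7%). Elovl6 was the 1 member with all 3 differentiated libraries below the other 12 (3.23%, against 13.1%). Hsd17b7 was the 1 member with all 3 GFP+ MPC libraries below the other 12 (3.23%, against 9.11%). For no member did all 3 bulk MPC libraries lie above the other 12 (background 11.3%). Nor did all 3 bulk myoblast libraries lie above or below the other 12 for any member (1.16% and 0.908%).

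**Figure D1:**
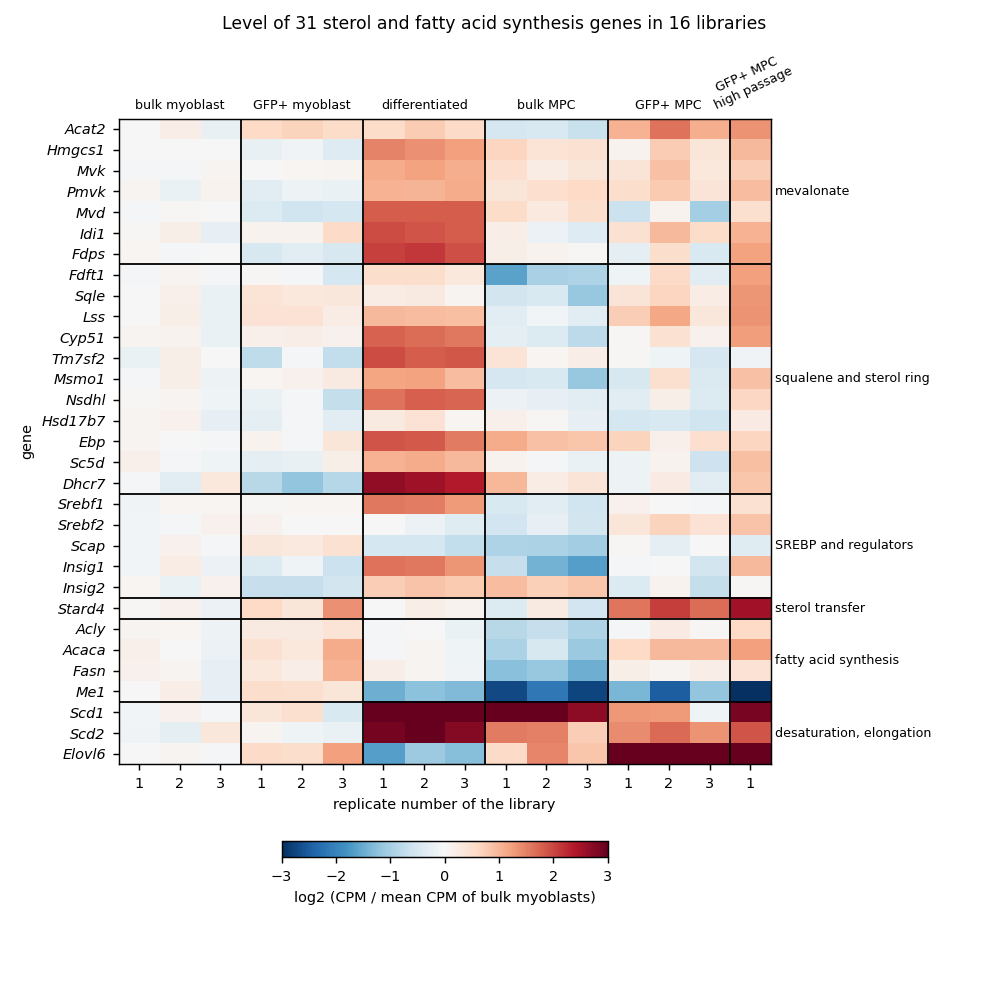
Level of each of the 31 members (rows, ordered by role) in each of the 16 libraries (columns), as log2 of CPM over the mean CPM of bulk myoblasts, with the colour scale limited to 3 in either direction. The differentiated libraries are high across most sterol enzymes, bulk MPC are low for the fatty acid synthesis genes, and Elovl6 is high in GFP+ MPC and the high-passage library.

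Differentiation medium was followed by higher RNA of nearly the whole sterol pathway, while none of the 4 fatty acid synthesis genes was higher. Against bulk myoblasts, 20 of 31 members were higher in differentiated cultures and 3 were lower. Of all tested genes, 54.2% were called, 25.6% higher and 28.6% lower, and the members' median log2 difference was 1.13 against -0.03 for all genes. The sterol enzymes accounted for most of it, with 15 of 18 higher and 0 lower (median 1.31), and the remaining 5 higher members were Srebf1, Insig1, Insig2, Scd1 and Scd2.

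The 7 mevalonate-stage enzymes, which carry acetyl-CoA to farnesyl diphosphate, were all higher in differentiated cultures. Fdps makes farnesyl diphosphate, the branch point to sterols and to protein prenylation. Fdps stood at 53.3, 50.1 and 50.6 CPM in bulk myoblasts and at 211, 222 and 197 CPM in differentiated cultures, so the groups lay far apart. It rose 4.28-fold (log2 2.10 ± 0.20, edgeR adjusted p = 2.71e-06). Idi1, which interconverts the isoprene building blocks, went from 23.8 to 32.0 CPM up to 100.4 to 110.0 CPM (log2 1.96 ± 0.19, edgeR adjusted p = 3.29e-06). Mvd, which makes isopentenyl diphosphate, stood at 17.4 to 18.2 CPM in bulk myoblasts and at 62.4 CPM in each differentiated library (log2 1.88 ± 0.21). The earlier steps differed less. Hmgcs1 rose by log2 1.43 ± 0.14, the kinases Mvk and Pmvk by 1.20 ± 0.15 and 1.13 ± 0.14, and Acat2, the cytosolic acetoacetyl-CoA thiolase at the head of the pathway, by 0.70 ± 0.15, with no overlap between groups for any of them. How many of all tested genes had no overlap was not counted. Mouse has a close copy of Acat2, Acat3, whose reads cannot be fully separated, so the Acat2 values are less certain than the others.

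Of the 11 enzymes from squalene to cholesterol, 8 were higher. Dhcr7 catalyses a last step and removes the double bond of 7-dehydrocholesterol, the precursor of vitamin D. Its 3 libraries stood at 31.2, 25.3 and 39.9 CPM in bulk myoblasts and at 202, 189 and 166 CPM in differentiated cultures, a 6.04-fold rise (log2 2.59 ± 0.23, edgeR adjusted p = 1.71e-06) and the largest among the sterol enzymes. Tm7sf2, the sterol C14 reductase, rose by log2 1.95 ± 0.22. The isomerase Ebp rose by 1.83 ± 0.15, Nsdhl by 1.79 ± 0.17 and Cyp51, which removes the C14 methyl group of lanosterol, by 1.74 ± 0.14. Msmo1, Sc5d and the lanosterol synthase Lss rose by 1.18 ± 0.23, 1.11 ± 0.18 and 1.00 ± 0.17. The 3 enzymes that did not pass the test sit at different points of the chain. Fdft1, which joins farnesyl units to squalene, stood at 37.1 to 40.8 CPM and 48.2 to 55.7 CPM without overlap (log2 0.53 ± 0.23, edgeR adjusted p = 0.0645). Squalene epoxidase Sqle stood at 34.7 to 44.0 and 42.1 to 47.5 CPM, which overlap (0.26 ± 0.15, 0.163). A fit of the compared groups alone called both Fdft1 (0.54, edgeR adjusted p = 0.000672) and Sqle (0.27, 0.0461). Fdft1 was also called with DESeq2's Wald test (0.58, adjusted p = 0.0365), but neither was called under every alternative. Hsd17b7 just missed the threshold (0.33 ± 0.13, edgeR adjusted p = 0.0501) and was called once the replicate number entered as a block (0.33, 0.0195).

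The control genes did not move together. Srebf1 stood at 63.9, 71.7 and 72 CPM in bulk myoblasts and at 208, 200.1 and 169 CPM in differentiated cultures, a 2.91-fold rise (log2 1.54 ± 0.09, edgeR adjusted p = 3.32e-07). Srebf2 stood at 216 to 248 CPM and at 177 to 228 CPM, overlapping, with no call (-0.10 ± 0.12, edgeR adjusted p = 0.487). No difference in Srebf2 RNA was thus called in the comparison in which 15 of 18 sterol enzymes were higher. Insig1, itself an SREBP target and the feedback brake, stood at 48.6 to 63.6 CPM in growing and 137 to 168 CPM in differentiated cells (1.58 ± 0.22, edgeR adjusted p = 6.86e-05). Insig2 rose by 0.86 ± 0.17. Scap fell from 82.6 to 96.6 CPM down to 52.4 to 61.5 CPM (-0.53 ± 0.10, edgeR adjusted p = 0.000677), a call lost when counts were scaled from TPM (-0.48, 0.0536).

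The fatty acid branch split between its stages. Acly supplies cytosolic acetyl-CoA, Acaca makes malonyl-CoA and Fasn assembles palmitate. Fasn stood at 286, 279.6 and 221 CPM in bulk myoblasts and at 299, 279 and 243 CPM in differentiated cultures, and the log2 differences of Fasn (0.13 ± 0.19), Acaca (0.03 ± 0.20) and Acly (-0.01 ± 0.10) were not called (edgeR adjusted p = 0.59, 0.914 and 0.938), with overlapping groups each. Malic enzyme Me1, a source of NADPH, fell by log2 1.27 ± 0.25 from 80.7 to 111 CPM down to 34.7 to 41.3 CPM. The stearoyl-CoA desaturases, which turn saturated into monounsaturated fatty acids, had the largest rises among the 31. Scd1 stood at 19.6, 22.4 and 20.0 CPM and at 337, 479 and 323 CPM, a 19.2-fold rise (log2 4.26 ± 0.36, edgeR adjusted p = 1.2e-06). Scd2 stood at 327, 291 and 445 CPM and at 2579, 2849 and 2384 CPM (7.69-fold, log2 2.94 ± 0.21), and per length (TPM) it was the most abundant member in these 2 groups, at a mean of 107 and 720.3 TPM. Elovl6, which lengthens palmitate to stearate, went the other way, from 17.3 to 19.1 CPM down to 5.73 to 8.46 CPM (log2 -1.27 ± 0.24, edgeR adjusted p = 0.000615). All 15 genes of a cell cycle list were lower in differentiated cultures (median log2 -4.81), and the part of this in the members' differences was not tested.

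**Figure D2:**
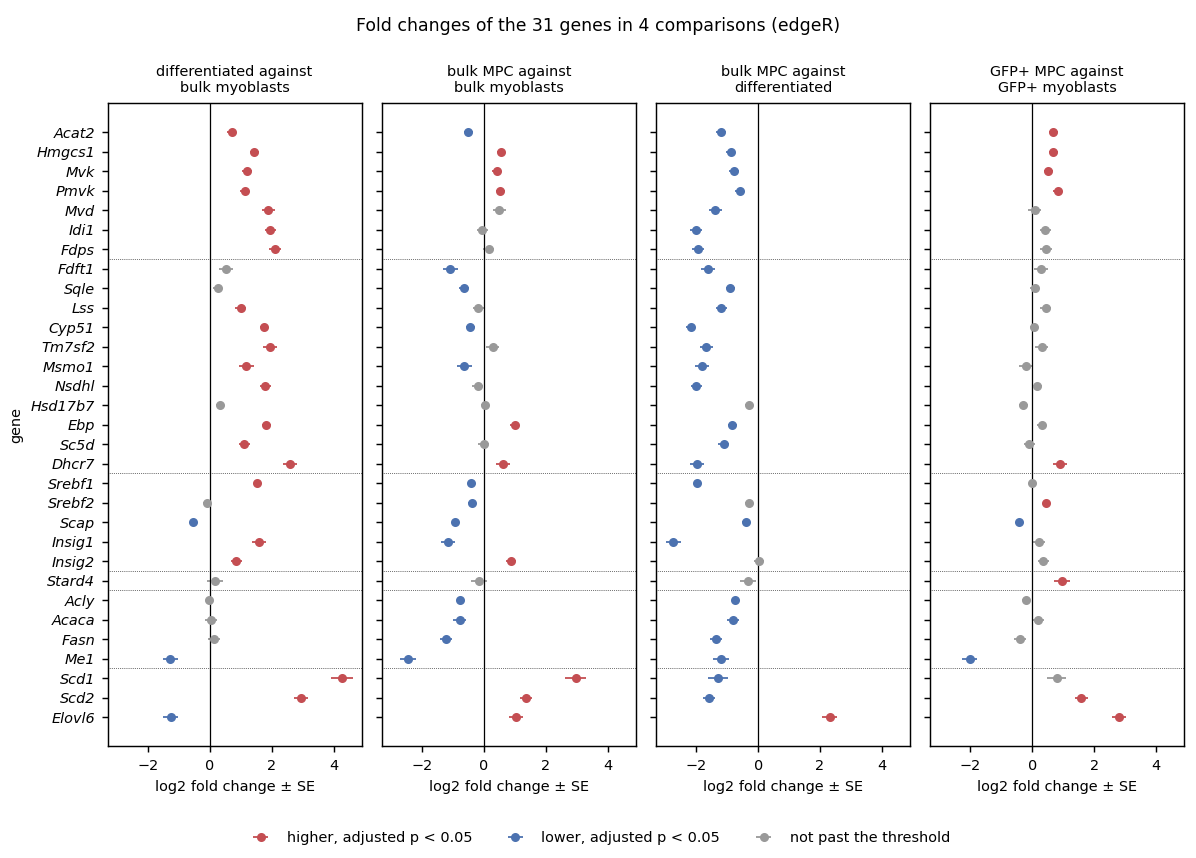
Log2 fold change (x axis) with its standard error (bars) of each of the 31 members (rows) in 4 comparisons (panels), with points in red where higher, blue where lower and grey where the adjusted p of edgeR was not under 0.05. Differentiated against bulk myoblasts has 20 red points, and bulk MPC against differentiated myoblasts has 26 blue points and 1 red point, Elovl6.

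Bulk MPC and differentiated cultures both contained abundant muscle cell RNA, but the lipid synthesis genes differed between them almost throughout. Of 31 members, 26 were lower in bulk MPC and 1 was higher, where 43.8% of all tested genes were called, 24.4% higher and 19.4% lower. The members' median log2 difference was -1.19 against 0.07 for all genes, and 17 of 18 sterol enzymes, 3 of 5 control genes and all 4 fatty acid synthesis genes were lower. Of 8 myogenic genes in the same comparison, 2 were higher in bulk MPC (25%), 1 was lower (12.5%) and 5 were not called. The 5 included Myh3 (log2 -0.37 ± 0.28), Ckm (0.12 ± 0.44) and Acta1 (0.37 ± 0.27), with edgeR adjusted p = 0.314, 0.843 and 0.274. The myogenic differences ran from -1.02 to 1.27. Of the cell cycle list, 14 of 15 genes were higher in bulk MPC.

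Insig1 had the largest difference in this comparison. It stood at 33.6, 20.6 and 17.3 CPM in bulk MPC, against 137 to 168 CPM in differentiated cultures (6.68-fold lower, log2 -2.74 ± 0.23, edgeR adjusted p = 2.83e-06). Cyp51, at 33.5, 30.5 and 23.4 CPM against 122 to 138 CPM, was 4.53-fold lower (-2.18 ± 0.14, edgeR adjusted p = 3.94e-07). The groups overlapped for neither gene. Idi1 (-2.01 ± 0.19), Nsdhl (-2.0 ± 0.17), Dhcr7 (-1.98 ± 0.22) and Fdps (-1.95 ± 0.19) were lower by similar amounts, and Pmvk had the smallest called difference among the enzymes (-0.60 ± 0.14). Hsd17b7 was the 1 sterol enzyme not called (-0.30 ± 0.13, edgeR adjusted p = 0.0852) and was called with the replicate block (-0.30, 0.0393). Srebf1 was 3.89-fold lower (-1.96 ± 0.09, edgeR adjusted p = 3.59e-08), at 50.7, 54.4 and 45.6 CPM, whereas Srebf2, Insig2 and Stard4 were not called. Srebf2 was near the threshold (-0.30, edgeR adjusted p = 0.0558). It was called lower under some alternatives and not under others. Among the former were a fit of the compared groups alone (-0.35, edgeR adjusted p = 0.0467) and DESeq2's Wald test (-0.31, adjusted p = 0.0331). Scap (-0.41 ± 0.10) was lower, but not with counts scaled from TPM (-0.40, edgeR adjusted p = 0.113). Fasn stood at 111, 119 and 94.6 CPM (-1.37 ± 0.19, edgeR adjusted p = 0.000116), and Scd2 at 1043, 1011 and 590.0 CPM (-1.59 ± 0.20), each below all differentiated libraries. Elovl6, at 26.8, 50.2 and 32.5 CPM, was 4.97-fold higher (2.31 ± 0.24, edgeR adjusted p = 1.16e-05). Bulk MPC replicate 2 stood apart in fibroblast markers, whose summed level was 147 CPM there and 1.25 and 3.60 CPM in the other 2 libraries. Without this library the count was 27 lower and 1 higher.

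**Figure D3:**
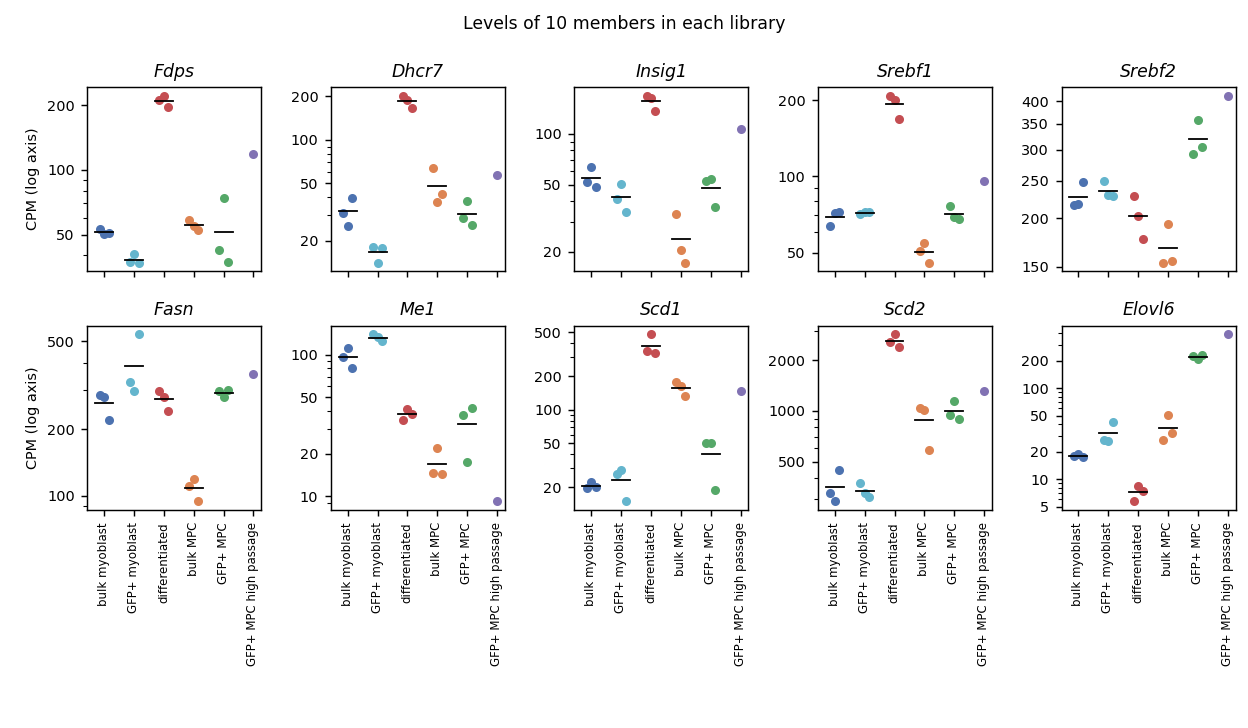
CPM on a log axis (y) of 10 members (panels) in the libraries of each group (x, 1 point each), with a line at the mean of the 3 libraries of a replicated group. Differentiated libraries are highest for Fdps, Dhcr7, Insig1, Srebf1, Scd1 and Scd2, and GFP+ MPC lie far above every other replicated group for Elovl6.

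Against bulk myoblasts, bulk MPC had lower palmitate synthesis genes, higher desaturase genes and sterol enzymes in both directions. Of the 31 members 9 were higher and 13 lower, against 58.5% of all tested genes called, 28.4% higher and 30.1% lower, and the members' median log2 difference was -0.15 (all genes -0.01). TMM factors of bulk MPC were low (0.772 to 0.861), and with library totals alone the split was 5 higher and 17 lower, with the median of all genes at -0.38. The 4 fatty acid synthesis genes were all lower (median -1.01). Me1 stood at 14.7, 21.9 and 14.3 CPM against 80.7 to 111 CPM, a 5.52-fold difference (-2.46 ± 0.26, edgeR adjusted p = 6.03e-06). Fasn was 2.36-fold lower (-1.24 ± 0.19, edgeR adjusted p = 0.000125). Acaca, at 36.3, 49.8 and 32.4 CPM, and Acly, at 91.6, 102 and 86.2 CPM, were lower by log2 0.78 ± 0.20 and 0.77 ± 0.10, and none of the 4 overlapped with bulk myoblasts. The share of all tested genes without such overlap was not counted.

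The 3 desaturation and elongation genes were all higher in bulk MPC. Scd1 stood at 177, 163 and 132 CPM against 19.6 to 22.4 CPM (7.82-fold, log2 2.97 ± 0.34, edgeR adjusted p = 9.6e-06). Scd2 was 2.55-fold and Elovl6 2.07-fold higher, without overlap. Fasn and the desaturases thus differed in opposite directions between these 2 cultures. In the control circuit Insig1 (-1.16 ± 0.22), Scap (-0.94 ± 0.10), Srebf1 (-0.42 ± 0.09) and Srebf2 (-0.40 ± 0.12) were lower. Insig2, the second Insig gene, was higher at 62.0, 53.1 and 57.7 CPM against 28.3 to 35.1 CPM (0.87 ± 0.17, edgeR adjusted p = 0.000615). The Srebf2 call was lost with counts scaled from TPM (-0.29, adjusted p = 0.0744).

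Among sterol enzymes, 5 were higher and 5 lower in bulk MPC than in bulk myoblasts (median 0.01), which is 27.8% each way and near the shares of all genes. Fdft1 fell 2.13-fold, from 37.1 to 40.8 CPM down to 12.5, 19.7 and 20.4 CPM (-1.09 ± 0.23, edgeR adjusted p = 0.00142). Sqle fell by 0.64 ± 0.15 and Cyp51 by 0.44 ± 0.13. Msmo1 (-0.63 ± 0.24) and Acat2 (-0.50 ± 0.15) were lower as well, but Acat2 was not called without bulk myoblast replicate 2 (-0.40, edgeR adjusted p = 0.0599), nor Msmo1 without any 1 of 3 libraries (-0.63 to -0.47) or with counts scaled from TPM (-0.39, 0.172). Fdft1 and Sqle are the entry to the committed sterol branch, after the farnesyl diphosphate branch point. Ebp rose to 32.4, 27.5 and 26.4 CPM from 14.3 to 15.7 CPM (0.99 ± 0.15, edgeR adjusted p = 9.32e-05). Hmgcs1 (0.55 ± 0.14), Pmvk (0.53 ± 0.14), Mvk (0.41 ± 0.15) and Dhcr7 (0.62 ± 0.22) were higher too, but with library totals alone these 4 were 0.18, 0.17, 0.04 and 0.24 and not called. Borderline calls were lost without single libraries: Dhcr7 without bulk myoblast replicate 1 (0.61, edgeR adjusted p = 0.0637) or 2 (0.47, 0.114) or bulk MPC replicate 1 (0.35, 0.165) or with counts scaled from TPM (0.41, 0.182), Cyp51 without bulk myoblast replicate 1 (-0.38, 0.0566) or bulk MPC replicate 3 (-0.33, 0.0632), and Mvk without any 1 of 4 libraries (0.34 to 0.40) or the filter on low counts (0.37, 0.0914). Of the cell cycle list, 14 of 15 genes were lower in bulk MPC (median -1.28), and the part of this in the members' differences was not tested.

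Sorted MPC and sorted myoblasts differed in fewer members, and the largest differences lay in fatty acid elongation, desaturation and NADPH supply. Of 31 members, 9 were higher in GFP+ MPC and 2 lower, against 48.6% of all tested genes called, 26% higher and 22.7% lower, and the members' median log2 difference was 0.30 against 0.09. The share of higher members, 29%, was near this background. Elovl6 stood at 26.9, 26.2 and 42.6 CPM in GFP+ myoblasts and at 225, 208 and 232 CPM in GFP+ MPC, a 6.98-fold rise (log2 2.80 ± 0.24, edgeR adjusted p = 1.08e-06). Scd2 stood at 372, 325 and 308 CPM and at 947, 1145 and 902 CPM (1.59 ± 0.20, edgeR adjusted p = 3.42e-05). Neither gene's groups overlapped. Me1 stood at 139, 134 and 124 CPM and at 37.4, 17.4 and 42.1 CPM, 4.08-fold lower (-2.03 ± 0.26, edgeR adjusted p = 3.2e-05). Fasn (-0.40 ± 0.19), Acaca (0.19 ± 0.20) and Acly (-0.22 ± 0.10) were not called, and their levels were 279.5 to 303, 106 to 137 and 159 to 194 CPM in GFP+ MPC. Scd1, at 50.6, 50.2 and 18.9 CPM against 15 to 28.7 CPM, overlapped and was not called (0.78 ± 0.32, edgeR adjusted p = 0.0568), though it was with the replicate block (0.75, 0.024).

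On the sterol side, GFP+ MPC had 5 of 18 enzymes higher (27.8%, against 26% of all tested genes) and 0 lower (against 22.7%). Dhcr7 stood at 28.9, 38 and 25.7 CPM against 14.1 to 18.1 CPM (0.90 ± 0.22, edgeR adjusted p = 0.00454). Pmvk (0.82 ± 0.14), Acat2 (0.68 ± 0.15), Hmgcs1 (0.68 ± 0.14) and Mvk (0.52 ± 0.15) were the others, all of the mevalonate stage, and none overlapped. This lack of overlap was not compared with all tested genes. Stard4, which carries cholesterol between membranes in the cytosol, stood at 40.0, 55.2 and 42.2 CPM against 19.8, 17.0 and 33.9 CPM (0.97 ± 0.26, edgeR adjusted p = 0.00704). Srebf2 rose from 228 to 249 CPM up to 293 to 359 CPM (0.45 ± 0.12, edgeR adjusted p = 0.00672), Srebf1 was not called (-0.01 ± 0.09) and Scap fell by 0.44 ± 0.10. For 16 of the 18 sterol enzymes, a count not compared with all tested genes, the highest level of the 3 was that of GFP+ MPC replicate 2. Without it, Mvk was not called (0.31, edgeR adjusted p = 0.0579), nor was it in a fit of the compared groups alone (0.45, 0.121). Leaving out that library made Msmo1 (-0.60, edgeR adjusted p = 0.0144) and Acly (-0.31, 0.0279) called lower and Ebp (0.43, 0.0309) called higher. Acat2 (0.46), Hmgcs1 (0.48), Dhcr7 (0.71) and Stard4 (0.80) kept their call. With the replicate block, Lss (0.41, edgeR adjusted p = 0.035) was called higher and Hsd17b7 (-0.29, 0.0417) lower, against 0.43 and 0.0531, and -0.29 and 0.0911, without it. The Scap call was lost with counts scaled from TPM (-0.45, 0.0706). Of the cell cycle list, 7 of 15 genes were higher and 1 lower in GFP+ MPC.

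**Figure D4:**
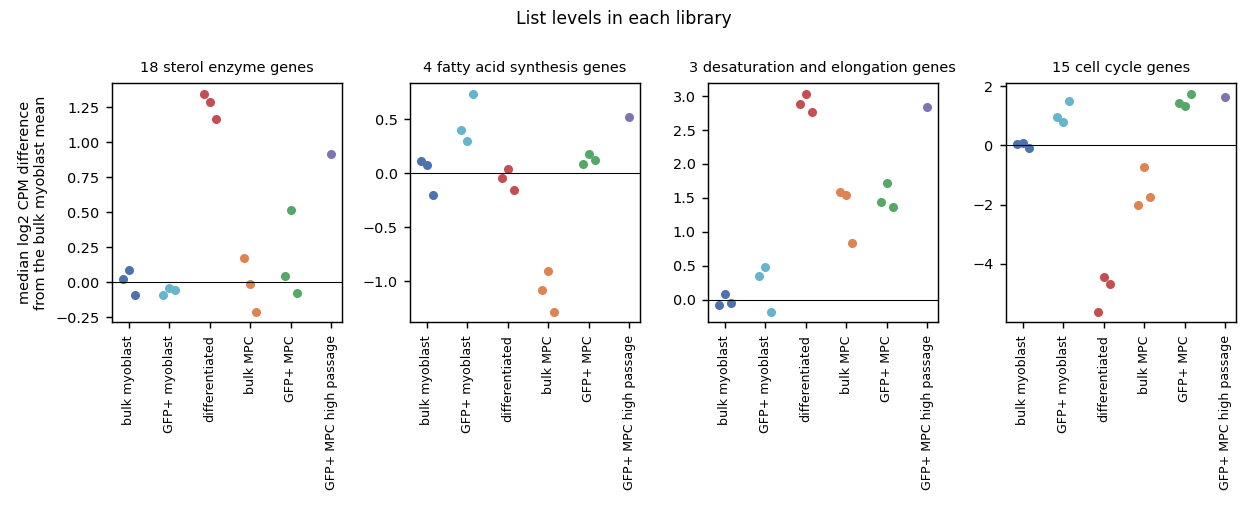
Median, over the genes of a list, of the log2 CPM difference from the mean of bulk myoblasts (y) in each of the 16 libraries (points by group on x), for 18 sterol enzymes, 4 fatty acid synthesis genes, 3 desaturation and elongation genes and 15 cell cycle genes. The sterol enzymes sit at 1.16 to 1.34 in differentiated libraries, and the fatty acid synthesis genes at -1.28 to -0.90 in bulk MPC.

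Sorting for the reporter was accompanied by higher palmitate synthesis genes in both cultures, though in myoblasts these calls were lost without single libraries. In the MPC culture a larger set of members was higher. In GFP+ MPC against bulk MPC, 17 members were higher and 6 lower, against 66.6% of all tested genes called, 32.9% higher and 33.7% lower, with a members' median of 0.57 (all genes -0.01). With library totals alone the split was 22 higher and 2 lower, with the median of all genes at 0.46. All 4 fatty acid synthesis genes were higher, with Me1 at 0.89 ± 0.26 and Acly at 0.86 ± 0.10. Acaca stood at 106, 137 and 136 CPM against 32.4 to 49.8 CPM (3.13-fold, edgeR adjusted p = 9.56e-06), and Fasn was 2.64-fold higher (1.40 ± 0.19, edgeR adjusted p = 2.5e-05). Elovl6 was 5.91-fold higher (2.56 ± 0.23, edgeR adjusted p = 5.96e-07). The direction of Scd1 was opposite, 4.04-fold lower (-2.02 ± 0.32, edgeR adjusted p = 9.45e-05). Stard4 (1.95 ± 0.27), Acat2 (1.78 ± 0.16), Fdft1 (1.20 ± 0.24), Sqle (1.07 ± 0.15), Lss (0.98 ± 0.18), Idi1 (0.74 ± 0.18) and Cyp51 (0.66 ± 0.13) were higher. Msmo1 (0.57 ± 0.24) was too, but not without any 1 of 3 libraries (0.18 to 0.66), nor with counts scaled from TPM (0.35), median-ratio size factors (0.54) or the compared groups alone (0.57). The last fit also lost Me1 (0.89, edgeR adjusted p = 0.0538). In the same comparison Mvd (-0.95 ± 0.21), Dhcr7 (-0.67 ± 0.22), Hsd17b7 (-0.55 ± 0.13) and Ebp (-0.54 ± 0.15) were lower. These 4 lower enzymes were not called with library totals alone (-0.46, -0.18, -0.07 and -0.06), and Dhcr7 was not called without bulk MPC replicate 1 (-0.41, edgeR adjusted p = 0.0979) or GFP+ MPC replicate 3 (-0.55, 0.0648). With counts scaled from TPM, Hsd17b7 (-0.18, edgeR adjusted p = 0.271) and Dhcr7 (-0.47, 0.123) were not called. Without GFP+ MPC replicate 2, all 4 kept their call, with Mvd at -1.32. Fdps (-0.51, edgeR adjusted p = 0.000263) and Hmgcs1 (-0.31, 0.031) were then called lower as well. With that library they were at -0.15 and -0.11 and not called. The control genes Srebf2 (0.89 ± 0.12), Scap (0.86 ± 0.10), Insig1 (0.97 ± 0.22) and Srebf1 (0.46 ± 0.09) were higher and Insig2 lower (-1.17 ± 0.17). Muscle genes differed here in both directions: of 8 myogenic genes, 5 were lower in the sorted cells (62.5%, against 33.7%) and 2 higher (25%, against 32.9%). They ran from log2 -6.16, that of Myh3, to 3.14. All 15 cell cycle genes were higher (median 3.00). The part of both lists in the members' differences was not tested.

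In GFP+ myoblasts against bulk myoblasts, 7 members were higher and 2 lower, against 30% of all tested genes called, 12.7% higher and 17.4% lower. The members' median was 0.04 (all genes -0.02). Acaca (0.67 ± 0.20), Fasn (0.56 ± 0.19) and Acly (0.31 ± 0.10) were higher, as were Stard4 (0.83 ± 0.26), Elovl6 (0.81 ± 0.23), Acat2 (0.60 ± 0.15) and Scap (0.35 ± 0.10). GFP+ myoblast replicate 3 held the highest Fasn (538 CPM against 299 and 327) and Acaca (149.8 against 87.5 and 96.4). The number of higher calls was 2, 4 and 0 without bulk myoblast replicates 1, 2 and 3, and 1 without GFP+ myoblast replicate 3. Without bulk myoblast replicate 3, which stood apart in fibroblast markers, the differences of all 7 members kept their direction but were smaller. They were those of Elovl6 (0.78), Stard4 (0.75), Acaca (0.59), Acat2 (0.50), Fasn (0.45), Scap (0.33) and Acly (0.24), with edgeR adjusted p of 0.0563 to 0.161. Without GFP+ myoblast replicate 3, Fasn (0.24), Acaca (0.38), Stard4 (0.46) and Elovl6 (0.53) moved by over 1.5 times. In a fit of the compared groups alone, Acaca (0.64, edgeR adjusted p = 0.0583), Stard4 (0.80, 0.0588), Acly (0.28, 0.0598) and Fasn (0.53, 0.125) were not called. Fasn was also lost with the replicate block (0.56, edgeR adjusted p = 0.0651), which added Sqle (0.36, 0.0405, against 0.35 and 0.0941 without it). Dhcr7, at 18.1, 14.1 and 17.8 CPM against 25.3 to 39.9 CPM, was lower (-0.95 ± 0.22, edgeR adjusted p = 0.00632), and so was Insig2 (-0.66 ± 0.17, 0.0109). Of 8 myogenic genes, 5 were lower in the sorted cells (62.5%, against 17.4%), with Myh3 lower by log2 6.71, and 1 was higher (12.5%, against 12.7%). Of the cell cycle list, 12 of 15 genes were higher. The part of both lists in the members' differences was not tested.

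The differences between sorted and unsorted cells were not the same in the 2 cultures, as tested by their interaction, for 14 members: 12 had a larger sorted-minus-unsorted difference in MPC and 2 a smaller one, against 37.1% of all tested genes called, 20.3% higher and 16.8% lower. With library totals alone the split was 18 and 1. Elovl6 (1.76 ± 0.32, edgeR adjusted p = 0.000963), Fdft1 (1.38 ± 0.33) and Insig1 (1.36 ± 0.31) had the largest positive terms and Scd1 (-2.18 ± 0.45, edgeR adjusted p = 0.00226) the largest negative one. For Acaca (0.98 ± 0.28) and Fasn (0.84 ± 0.27), sorted and unsorted cells differed more in MPC than in myoblasts, though Fasn was not called without any 1 of 5 libraries (0.68 to 0.79). With the replicate block, Lss (0.59, edgeR adjusted p = 0.042, against 0.62 and 0.0638) and Cyp51 (0.50, 0.0393, against 0.50 and 0.0522) were called too.

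The single high-passage GFP+ MPC library has no replicate and differs in sex, age, passage and starting cells, so its values are given side by side with no test. It stood above all 3 GFP+ MPC libraries for 24 of 31 members and below all of them for 2. The share of all tested genes in either position was not counted, so these counts cannot be read as particular to the members. Elovl6 was at 389 CPM (208 to 232 in GFP+ MPC), Fdps at 119 CPM (37.3 to 74.3), Insig1 at 107 CPM (37.2 to 53.9) and Scd1 at 149 CPM (18.9 to 50.6). Me1 was at 9.23 CPM (17.4 to 42.1). The 18 sterol enzymes had a median log2 difference of 0.91 from bulk myoblasts there, against -0.08 to 0.51 in the GFP+ MPC libraries.

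Transcript shares describe which forms made up these levels. Srebf1-201, which starts in the upstream window printed above, held 66.4% ± 5.91 (SD, n = 3) of Srebf1 counts in bulk myoblasts, 73.8% ± 6.13 in GFP+ myoblasts, 67.5% ± 7.38 in bulk MPC, 66.9% ± 8.93 in GFP+ MPC and 49.5% ± 2.96 in differentiated cultures. Srebf1-207, which starts in the downstream window, held 20.4% ± 7.42 in bulk myoblasts and 28.0% ± 2.29 in differentiated cultures, and Srebf1-203, which starts further downstream, held 5.37% ± 2.80 and 15.5% ± 0.924. The upstream form was thus the larger in every group, and its share was smallest where Srebf1 was highest. For Acly, the transcript Acly-203 held 80.8% ± 6.71 in bulk MPC and 59.8% to 69.5% on average in the other groups. For Lss, the coding transcript Lss-201 held 56.6% in bulk myoblasts, 46.7% in differentiated cultures and 36.5% in bulk MPC, and 2 retained-intron transcripts held much of the rest. The kallisto estimates share reads among overlapping transcripts, and no test was made of these shares.

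Genes next to the pathway gave mixed counts, many of them near the shares of all tested genes given above for the same comparisons. Of 6 genes that process or degrade the SREBP machinery, 2 were higher (33.3%, against 25.6% of all tested genes) and 3 lower (50%, against 28.6%) in differentiated than in bulk myoblasts. Mbtps1, the site-1 protease that cleaves SREBPs, was lower there (-1.06 ± 0.09) and in bulk MPC (-1.16 ± 0.09), and higher in GFP+ than in bulk MPC (1.56 ± 0.09, edgeR adjusted p = 1.95e-08). Of 14 other fatty acid genes, 7 were higher (50%) and 5 lower (35.7%) on differentiation. The highest rise among them was that of Acss2, which makes acetyl-CoA from acetate: 12.1 to 19.4 CPM in bulk myoblasts, 75.4 to 89.4 CPM in differentiated cultures and 74.5 to 135 CPM in bulk MPC (2.46 ± 0.25 and 2.65 ± 0.25). In GFP+ MPC, at 9.09 to 16.5 CPM, it was lower than in bulk MPC by log2 2.99 ± 0.25. The desaturases of polyunsaturated fatty acids Fads1 (2.32 ± 0.28) and Fads2 (2.77 ± 0.33) exceeded their bulk MPC level in GFP+ MPC, where 8 of the 14 were higher (57.1%, against 32.9%) and 4 lower (28.6%, against 33.7%). Fads2 was lower in bulk MPC than in differentiated cultures (-2.60 ± 0.33), where 2 of 14 were higher (14.3%, against 24.4%) and 5 lower (35.7%, against 19.4%). Of 8 isoprenoid branch genes, 3 were higher (37.5%) and 2 lower (25%) on differentiation, with Dhdds, which builds dolichol, at 1.21 ± 0.11. Of 9 tested genes of sterol sensing, storage and export, 3 were higher (33.3%) and 2 lower (22.2%), and the cholesterol esterification enzyme Soat1 had the largest difference (-2.66 ± 0.25, edgeR adjusted p = 2.57e-06). Soat1 RNA was thus lower in differentiated cultures, where the sterol enzymes were higher.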

How the data were processed

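RNA was sequenced from 16 mouse muscle cell libraries, poly(A)-selected, stranded and read from a single end, per the labels' protocols, with 1 RNA kit for sorted and another for unsorted cells. The submitters' processing notes name fastp 0.20.0, kallisto 0.46.1 and GRCm39. Per the file headers, each deposited file lists transcripts with estimated counts, TPM, length and, as an other unit, effective length. The authors' expected counts were summed per gene and rounded. Deposited TPM were summed per gene to compare levels between genes. For the length-scaled alternative they were multiplied by each gene's ratio of mean count to mean TPM over the 16 libraries. The products were then brought to the library totals. GENCODE M21, which is on GRCm38, served for names alone. It matched 120739 of 121798 transcripts, and the 1059 others, 0.478% to 1.05% of counts, were left out. Promoters came from RefSeq on GRCm38.p6.

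The main test was edgeR 4.0.16's quasi-likelihood F test (R 4.3.3, limma 3.58.1) in 1 fit of the 15 replicated libraries in 5 groups, without the single high-passage library. TMM normalization and edgeR's default expression filter (a count of 10, a total of 15) left 15533 genes. The common dispersion was 0.047 with 10 residual degrees of freedom. Adjusted p-values are Benjamini-Hochberg values over all tested genes in each of 7 comparisons, several of which share libraries, with a threshold of 0.05. Standard errors were derived from the F statistic. A prior count of 2 entered only the log2 CPM values behind the list levels and the correlations between libraries. The fit was tested on simulated data. Alternatives were DESeq2 1.42.0 and other scalings, filters, samples and blocks.

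The labels call replicates biological. Same-numbered libraries carry names that begin with the same number in all 5 groups, and were taken as 1 parental line. The main fit held the group alone, with no term for the line, which only the alternative with the replicate block added. Deviations of same-numbered libraries correlated at 0.13 to 0.161 for bulk MPC with bulk myoblasts and at -0.0183 to 0.21 in the other comparisons. Replicate libraries differed by more than counting error (chi-square over its degrees of freedom 9.78 to 58.6). The members and lists were chosen with earlier results of these data known. All 31 members may be named, from each related list up to 4 genes with the largest called change and up to 2 against the majority, and marker genes as values beside a result.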

Additional observations from a re-analysis of the deposited data

Results flagged for a closer look

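For 14 members the difference between sorted and unsorted cells was not the same in the MPC culture and in myoblasts, by the interaction term of the edgeR fit over 3 libraries a group. The term was positive on the log2 scale, a larger sorted-minus-unsorted difference in MPC, for Elovl6 (1.76, edgeR adjusted p = 0.000963), Fdft1 (1.38, 0.00534), Insig1 (1.36, 0.00451), Acat2 (1.19, 0.000978), Stard4 (1.12, 0.0284) and Acaca (0.98, 0.0155). Smaller positive terms were those of Srebf2 (0.85, edgeR adjusted p = 0.00166), Fasn (0.84, 0.026), Sqle (0.72, 0.018), Acly (0.55, 0.00954), Scap (0.50, 0.0144) and Srebf1 (0.42, 0.0231). It was negative for Ebp (-0.68, edgeR adjusted p = 0.02) and Scd1 (-2.18, 0.00226). The adjusted p of Fasn was near the threshold: without any 1 of 5 libraries the term was 0.68 to 0.79 and not called. Srebf1 was 0.36 to 0.40 and not called without any 1 of 5 libraries, and Stard4 was 0.92 to 1.09 and not called without any 1 of 7. Ebp was not called without bulk MPC replicate 1 (-0.60, edgeR adjusted p = 0.0539) or with library totals in place of TMM factors (-0.31, 0.208). Scap was not called with counts scaled from TPM (0.43, 0.243).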

How the results depend on the processing

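Of 217 combinations of member and comparison, 129 were called, 99 of them under every alternative run, and 30 were lost under at least 1. DESeq2 gave higher and lower counts of 22 and 3 for differentiated against bulk myoblasts, 1 and 27 for bulk MPC against differentiated, 10 and 13 for bulk MPC against bulk myoblasts, and 10 and 3 for GFP+ MPC against GFP+ myoblasts. The replicate block gave 21 and 3, 1 and 27, 9 and 13, and 11 and 3 in that order, 17 and 6 and 7 and 2 for the sort in MPC and in myoblasts, and 14 and 2 for the interaction, and beyond the calls given with the results it changed none. With library totals and no TMM factors, an alternative chosen after seeing the data, bulk MPC against bulk myoblasts had 5 higher, GFP+ against bulk MPC had 2 lower and the interaction had 1 lower. Hsd17b7 reversed to -0.33 in the first (from 0.03) and Hmgcs1 to 0.37 in the second (from -0.11), both called, which follows from the scaling. Counts scaled from TPM left 1 lower member in GFP+ MPC against GFP+ myoblasts, and leaving out 1 library at a time gave 2 to 4, with 4 without GFP+ MPC replicate 2. A fit of the compared groups alone gave 4 higher and 4 lower members in GFP+ against bulk myoblasts, 3 of the 4 higher ones shared with the main count, and its higher count ranged from 0 to 7 without single libraries. The interaction had 1 to 4 lower members, with 1 without bulk MPC replicate 1 and 4 without GFP+ MPC replicate 2. The cause of the other changes was not tested. Both the 3 libraries a group and the depth limit precision, and their shares were not compared.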
